A study of Homo sapiens with 11 samples.

Results

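The widest H3K36me3 domains of WT cells were the 1310 intervals of 50 kb or wider in the WT H3K36me3 list, of 17507 intervals on chromosomes 1 to 22 and X. They made up 7.48% of the intervals and held 98.0 of 327.9 Mb, which is 29.9% of the covered length. MDA-MB-231 cells, a human line of triple-negative breast cancer, had been profiled by chromatin immunoprecipitation and sequencing (ChIP-seq) with 5 antibodies, against H3K4me3, H3K9me3, H3K36me3, H4K20me3 and MINA. The KO cells make no mdig protein per the labels, the WT cells have normal mdig, and both derive from CRISPR-Cas9 editing and were grown with blasticidin. The number of clones behind each genotype is not given in the sources used here. There was 1 library per antibody and genotype, so no difference between KO and WT could be set against replicate error, and no test was run.

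H3K36me3 is laid down by SETD2, which travels with elongating RNA polymerase II, so the mark covers gene bodies that are being transcribed and is usually low at their starts. H3K4me3 marks active promoters, and H3K9me3 and H4K20me3 are known from silent heterochromatin. Mdig, also called MINA53 or RIOX2, is an oxygenase with a JmjC domain, and MINA is the name of its antibody in the labels.

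An interval in these lists is a stretch that the authors' caller found enriched, with a start and an end and no height, and the read depth is unknown. Deeper reading or stronger enrichment of a library lengthens its list, so a longer list does not by itself show more of a mark. The WT domains of 10 to 20 kb served for comparison (n = 4660, median width 13.8 kb, 65.9 Mb). Between the H3K36me3 lists there was little difference in size, with 17800 intervals and 328.8 Mb in KO and 17507 intervals and 327.9 Mb in WT. The MINA lists held 7859 intervals and 35.7 Mb in KO and 16353 intervals and 119.6 Mb in WT. The H4K20me3 lists differed the other way, with 25318 intervals and 149.6 Mb in KO and 8539 intervals and 67.2 Mb in WT. The KO and WT lists of H3K4me3 held 101.9 and 120.7 Mb, and those of H3K9me3 held 305.7 and 254.7 Mb.

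The domains were chosen by their width in the WT H3K36me3 list, so the widths are a description only. They ran between 50 and 241.6 kb, with a median of 66.4 kb and quartiles of 56.4 and 83.8 kb. There were 843 domains of 50 to 75 kb, 298 of 75 to 100 kb, 140 of 100 to 150 kb and 29 of 150 kb or wider. The 3 domains just inside the threshold were each 50 kb wide (chr1:16922801-16972800, chr1:183849801-183899800 and chr2:242161401-242211400, hg19) and had 97.6%, 20.4% and 100% of their length covered in KO. The 3 just outside were each 49.8 kb wide (chr5:87488401-87538200, chr7:24835001-24884800 and chr10:5932601-5982400) and had 94.4%, 100% and 98.8% covered. The KO list held 1308 intervals of 50 kb or wider, the widest of 245.0 kb.

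Wide domains were spread unevenly over the chromosomes. Chromosome 1 held 146, chromosome 3 held 102 and chromosome 17 held 99. As a share of a chromosome's H3K36me3 length they were highest on chromosome 20, with 57 domains and 45.5%, and on chromosome 10, with 91 domains and 41.6%. They were lowest on chromosome 13, with 7 domains and 7.56%, and on chromosome X, with 8 domains and 8.47%. Another WT interval lay within 2 kb of 45.0% of the wide domains and of 49.2% of the domains of 10 to 20 kb, so part of the wide domains continued in a neighbour across a short gap.

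The wide domains were nearly all kept in KO cells, and those that were cut were cut by short gaps. KO intervals covered a median of 98.6% of a wide domain (95% order-statistic interval 98.5 to 98.8%), against 94.0% of a domain of 10 to 20 kb (93.5 to 94.4%). Summed over all domains of a class, 95.4% of the wide length and 80.7% of the length of the 10 to 20 kb domains was covered in KO. At least 90% was covered in 87.5% of the wide domains (1146, Wilson interval 85.6 to 89.2%) and in 59.4% of the domains of 10 to 20 kb, against 59.7% over all WT intervals. Cover was complete in 31.4% of the wide domains and 33.8% of the domains of 10 to 20 kb, against 35% of all WT intervals.

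Loss of a whole wide domain was rare. In KO no interval overlapped 2 of the 1310 wide domains (0.153%), against 377 of the 4660 domains of 10 to 20 kb (8.09%) and 14.5% of all WT intervals. Cover was under 50% in 19 wide domains (1.45%) and in 671 of the domains of 10 to 20 kb (14.4%), against 18.9% of all WT intervals. Heights are not in the lists, so how far the signal differed at these places is not known. The chromatin came from bulk cells, so a difference in all cells and one in part of the cells cannot be told apart.

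Breaks in the KO cover of wide domains were common by domain and uncommon by length. A domain counted as in 1 piece when exactly 1 KO interval overlapped it, however little of it was covered. The domain at chr6:136915601-136967000, for example, was in 1 piece with 9.34% covered. In KO 808 wide domains were in 1 piece (61.7%, Wilson interval 59.0 to 64.3%), against 77.8% of the domains of 10 to 20 kb and 71.9% of all WT intervals. There were 2 pieces in 306 wide domains, 3 pieces in 121 and 4 or more in 73. In all, 38.2% of the wide domains and 14.1% of the domains of 10 to 20 kb were in at least 2 pieces, against 13.6% of all WT intervals. Per 100 kb the order turned round, with 0.831 breaks in the wide domains (814 breaks) and 1.08 in the domains of 10 to 20 kb (713 breaks).

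The median break was 1.0 kb wide in both classes, close to the smallest gap that the lists hold, which is 0.8 kb. Of the 814 breaks in wide domains, 77.8% were 2 kb or shorter and 74 were 5 kb or longer (9.09%, against 3.09% in the domains of 10 to 20 kb). The widest break in a wide domain was 50.4 kb. When KO intervals within 5 kb were merged, 95.2% of the wide domains and 91.5% of the domains of 10 to 20 kb were in 1 piece, so the order of the classes turned round.

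**Figure D1:**
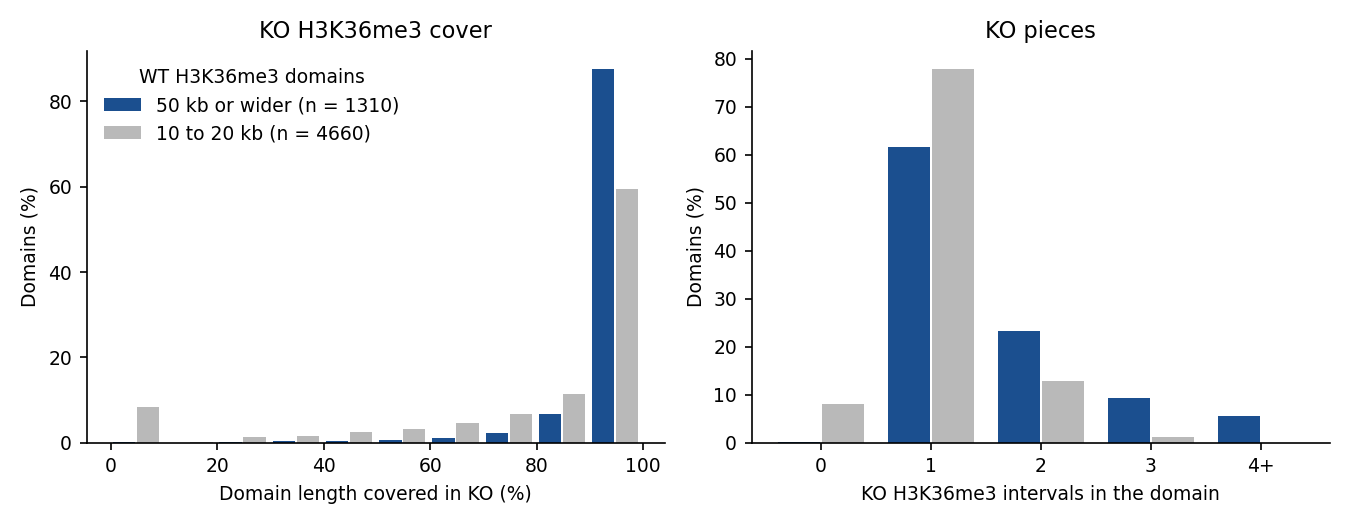
H3K36me3 of KO cells over WT H3K36me3 domains. Left, share of domains (%) by the share of their length covered in KO, in bins of 10 percentage points. Right, share of domains (%) by the number of KO intervals in them. Blue bars are the 1310 domains of 50 kb or wider and grey bars the 4660 domains of 10 to 20 kb. The grey bar at 0 pieces is 8.09% and the blue one 0.153%, while 2 or more pieces hold 38.2% of the blue and 14.1% of the grey class.

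The same reading in the other direction gave close values for median cover, pieces and breaks. For WT domains read in KO the median cover was 98.6%, the share in 1 piece 61.7% and the number of breaks 0.831 per 100 kb. For the 1308 KO domains of 50 kb or wider read in WT the values were 97.8%, 60.9% and 0.789. Wide domains chosen in either genotype were thus cut about as often in the other list. Complete cover and edges differed more between the directions. Cover was complete in 31.4% of the WT domains read in KO and in 18.0% of the KO domains read in WT. The WT list stopped short of the KO edge at 50.3% of 2600 edges and reached past it at 38.5%. For the KO list at the edges of WT domains these shares were 35.7% and 53.0%.

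Of the 4.51 Mb of wide domains not covered in KO, 39.5% lay in breaks and 60.5% at the ends or in domains not found. In the domains of 10 to 20 kb 8.05% of the 12.7 Mb lay in breaks. The KO list reached past the WT edge at 53.0% of 2616 edges of wide domains, stopped short at 35.7% and ended in the same 200-bp window at 11.2%. It stopped short by 5 kb or more at 5.24% of these edges and reached past by 5 kb or more at 14.6%. Edges of the domains of 10 to 20 kb were much alike, with 53.3% of 8566 reached past and 36.7% stopped short of. For 5 kb or more these shares were 18.4% and 4.75%. A shift of a given length takes a larger share of a narrow domain than of a wide one. Its part in the difference in KO cover between the classes was not tested. The KO interval holding most of a wide domain was itself 50 kb or wider in 998 domains (76.2%), wider than the WT domain in 566 (43.2%), and spanned another WT interval in 263 (20.1%).

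Wide domains in some stretches of chromosomes had more complete cover. In 11 stretches on chromosomes 4, 5, 6, 7, 9, 14, 15 and X the KO list of H3K4me3 was longer relative to the WT list than elsewhere, and they are called raised stretches here. They held 200 wide domains (15.3%) and 18.2% of the domains of 10 to 20 kb. The wide domains in them had a median KO cover of 100%, and 77.5% were in 1 piece with 0.508 breaks per 100 kb. The 1110 wide domains outside them had a median KO cover of 98.4%, and 58.8% were in 1 piece with 0.886 breaks per 100 kb. Between chromosomes the share in 1 piece was highest on chromosome 15, all of whose 29 wide domains lay in a raised stretch (86.2%), and lowest on chromosome 18, with 15 wide domains and none in a raised stretch (26.7%). Not all chromosomes followed this order. On chromosome 7, with 39 of 52 wide domains in raised stretches, 59.6% were in 1 piece. On chromosome 19, with 49 wide domains and none in a raised stretch, 75.5% were. The difference between raised stretches and the rest was not particular to wide domains. For the domains of 10 to 20 kb median KO cover was 100% in raised stretches and 92.1% outside them, and 87.2% and 75.7% were in 1 piece. The cause was not tested.

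Single domains showed the range of these states. The widest domain, chr8:141665601-141907200 (241.6 kb), was 99.5% covered by 1 KO interval. It held no interval of H3K4me3, MINA, H3K9me3 or H4K20me3 in either genotype. The domain of 209.0 kb at chr17:35438601-35647600 likewise held none of these marks and was 99.5% covered by 2 KO pieces with a gap of 1.0 kb. The domain of 209.0 kb at chr12:120105801-120314800 was wholly covered in 1 piece. It had H3K4me3 at both ends in both genotypes, 3 MINA intervals in KO and 2 in WT.

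The domain of 241.0 kb at chr2:36583401-36824400 had H3K4me3 at both ends in both genotypes and was cut into 6 KO pieces, with 96.0% of its length covered and a widest gap of 3.0 kb. The domain of 199.2 kb at chr12:66163201-66362400 had less cover, with 80.2%. Its KO cover began 21.2 kb inside the WT start and had a gap of 18.2 kb, which ended near the start of the H3K4me3 interval inside the domain. Most pieces were seen at chr7:92265401-92417200 (151.8 kb, 9 pieces, 93.8% covered), where no gap was over 2.0 kb and no MINA interval lay in either genotype. The domains at chr2:188329201-188418200 (89.0 kb, 8 pieces) and chr12:78505001-78607000 (102.0 kb, 7 pieces) had 81.1% and 68.0% covered and no MINA interval in either genotype.

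The 3 wide domains with the lowest KO cover were unlike in their other marks. At chr1:156195201-156265800 (70.6 kb) no KO H3K36me3 interval was found, while H3K4me3 had 2 intervals in KO and 2 in WT and MINA had 2 in KO and 4 in WT. H3K4me3 covered 21.2% of this domain in KO and 22.7% in WT. At chr1:224867001-224932000 (65.0 kb) KO cover was also 0, and none of the other antibodies had an interval in either genotype. At chr6:136915601-136967000 (51.4 kb) 9.34% was covered in KO, and the KO cover stopped 40.4 kb short of the WT end.

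**Figure D2:**
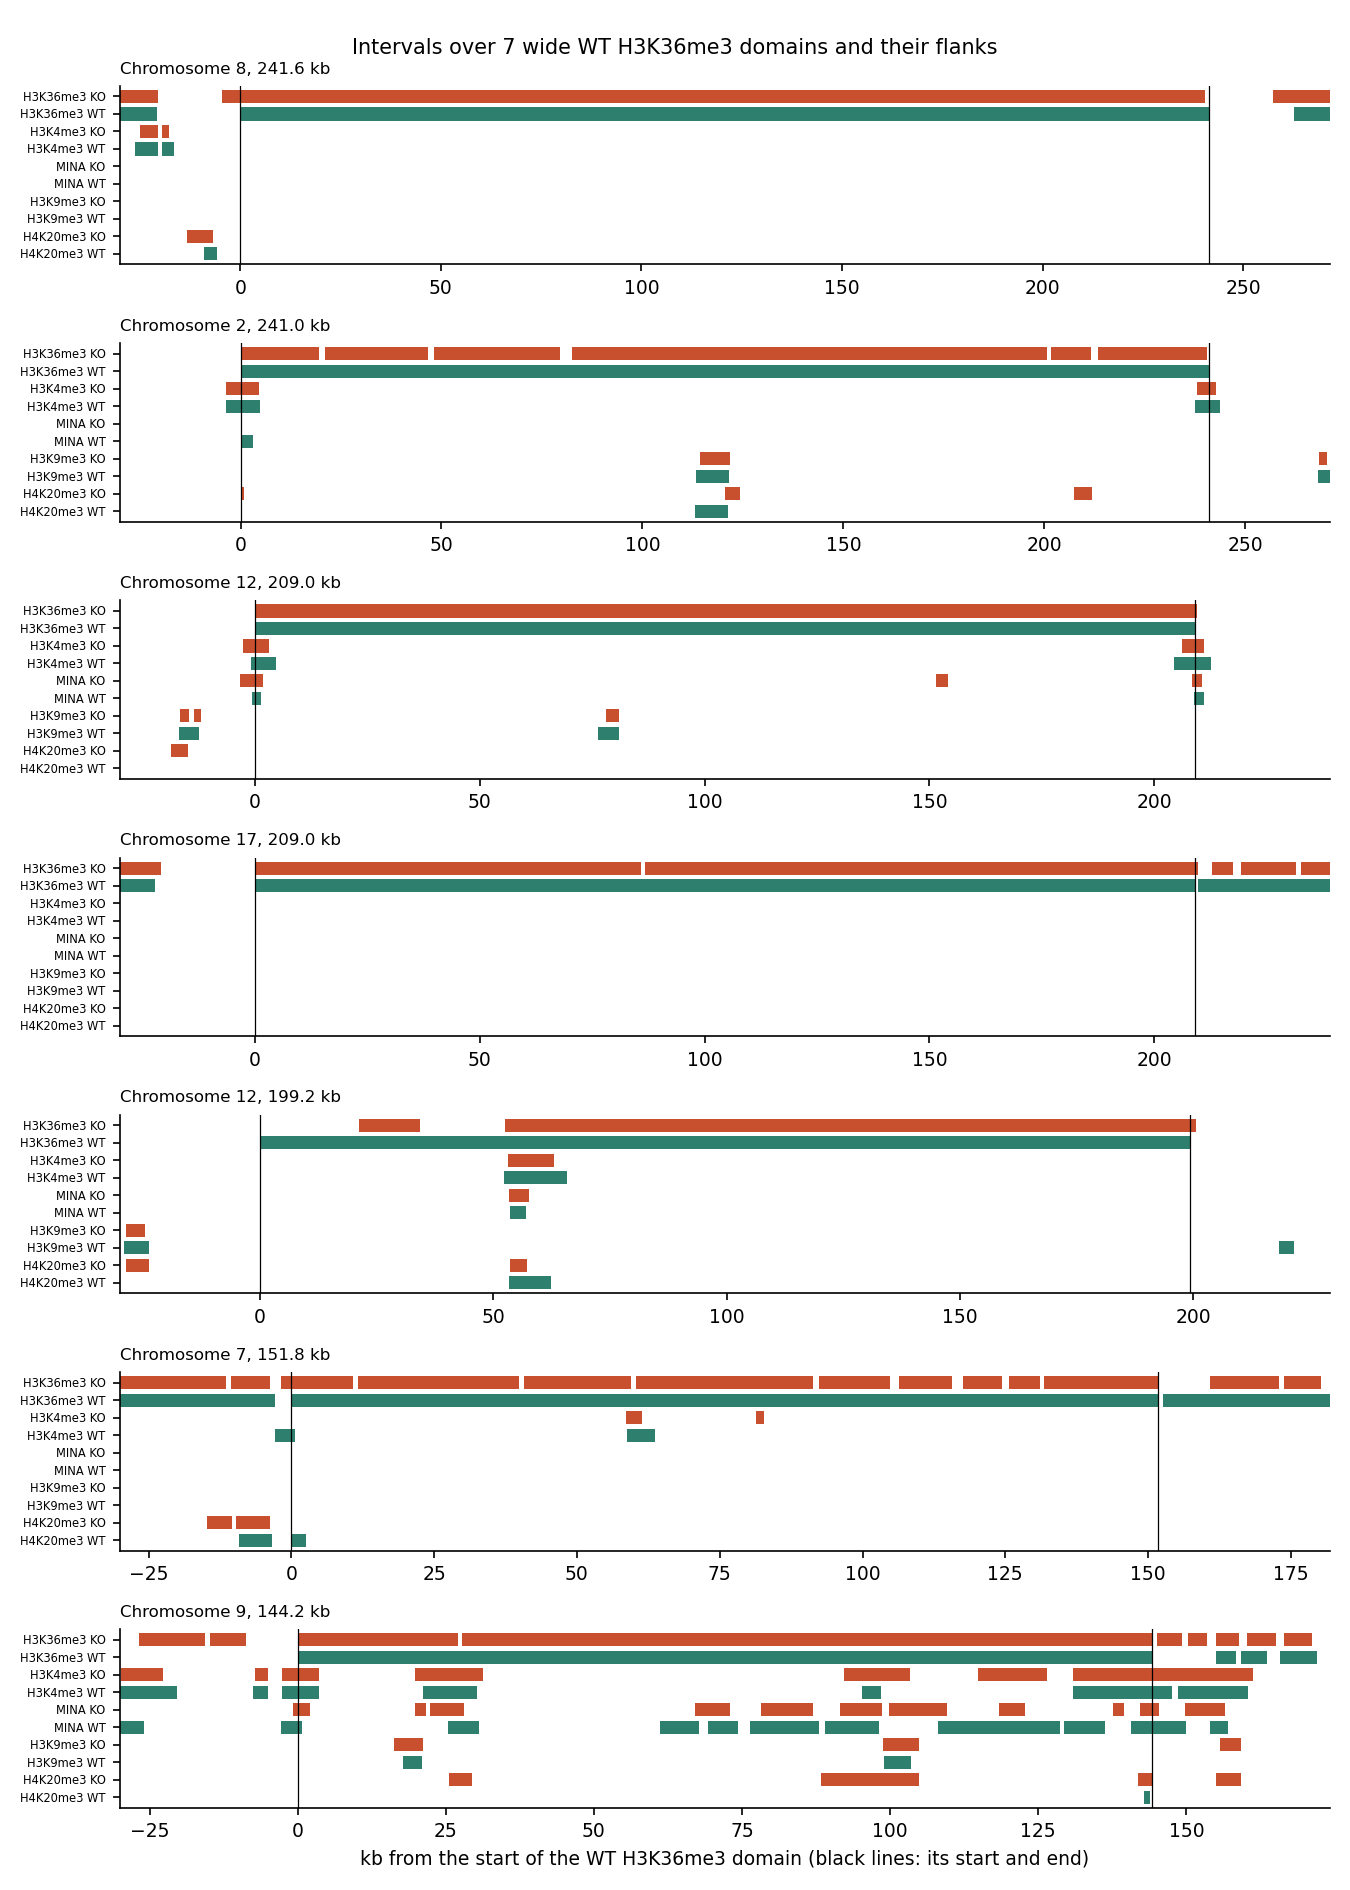
Intervals of the 10 libraries over 7 wide WT H3K36me3 domains and 30 kb on either side, in kb from the domain's start. The domains are the 5 widest, the one with most KO pieces (chromosome 7, 151.8 kb) and the one with most WT MINA intervals (chromosome 9, 144.2 kb). Orange bars are KO and green bars WT intervals, and black lines mark the domain's start and end. The gaps in the top row of the chromosome 7 domain separate its 9 KO pieces, and the chromosome 9 domain holds 10 MINA intervals in KO and 9 in WT.

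H3K4me3 lay mostly at the ends of wide domains. Its intervals overlapped 67.8% of the wide domains in KO and 70.7% in WT, against 39.8% and 41.4% of all WT H3K36me3 intervals. An H3K4me3 interval counted as at an end when it came within 2 kb of a domain edge and as inside when it lay wholly within the domain and farther from both edges. It was at an end of 66.7% of the wide domains in KO (Wilson interval 64.1 to 69.2%) and 69.5% in WT (66.9 to 71.9%). For the domains of 10 to 20 kb these shares were 46.2% and 47.7%, and over all WT intervals 43% and 44.7%. Both ends had H3K4me3 in 17.3% of the wide domains in KO and 18.7% in WT, against 8.80% and 10.7% of the domains of 10 to 20 kb and 11.3% and 12.8% of all.

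These intervals sat across the edge. In KO 88.2% of the 1105 ends with H3K4me3 had an interval that crossed the edge, and it reached a median of 3.4 kb outside and 3.8 kb inside. In WT the values were 88.6% of 1164 ends, 4.2 kb and 4.0 kb. H3K4me3 cover within 1 kb inside a wide domain's edge was 37.3% in KO and 39.4% in WT, and at 24 to 25 kb inside it was 3.32% and 3.82%. At 24 to 25 kb outside it was 10.8% in KO and 13% in WT, so the outside of wide domains held more H3K4me3 than their interior.

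H3K4me3 inside was a feature of some wide domains and rare in the narrower class. Inside intervals were seen in 20.2% of the wide domains in KO and 22% in WT (288 domains), against 0.880% and 1.12% of the domains of 10 to 20 kb and 3.21% and 3.46% of all WT intervals. A domain of 10 to 20 kb has little length away from its ends, so a window of the same size was also read. In the central 10 kb H3K4me3 overlapped 7.56% of the wide domains in KO and 8.55% in WT, against 31.6% and 33.8% of the domains of 10 to 20 kb. The middle of a wide domain thus held less H3K4me3 than that of a narrower one, whose central window lies near its ends. Over the whole length H3K4me3 covered 7.11% of the wide domains in KO and 8.19% in WT, and 14.2% and 16.1% of the domains of 10 to 20 kb.

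Both positions were mostly kept in KO, the ends more than the inside. Of 1145 WT intervals at an end of a wide domain 95.6% overlapped a KO H3K4me3 interval, and of 357 inside intervals 79.0% did (Wilson intervals 94.3 to 96.7% and 74.5 to 82.9%). Those that lay on a WT MINA interval were found more often. At an end 98.7% of the 981 on MINA and 77.4% of the 164 off MINA were found in KO, and inside 89.6% of 250 and 54.2% of 107. New positions were few. In the KO list 4 of 1088 end intervals and 19 of 326 inside intervals overlapped no WT H3K4me3 interval.

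No H3K4me3 was found at or in 29.5% of the wide domains in KO and 26.5% in WT (347 domains), against 53.3% and 51.7% of the domains of 10 to 20 kb. The nearest WT H3K4me3 interval lay a median of 21.6 kb from the edge of the 347 domains without it in WT and over 50 kb away in 74, at most 548 kb. When WT H3K36me3 intervals within 5 kb were joined, 262 of the 347 became part of a wider block, and for 153 (44.1%) that block had H3K4me3. The 3 widest without H3K4me3 were the 2 domains on chromosomes 8 and 17 described above and chr3:171939201-172121400 (182.2 kb), which was in 4 KO pieces with 96.5% covered.

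The wide domains with H3K4me3 at both ends were the least broken in KO. In 1 piece were 73.9% of the 245 with H3K4me3 at both ends (Wilson interval 68.0 to 79.0%), 63.3% of the 665 with it at 1 end, 56.6% of the 53 with it only inside and 50.7% of the 347 without it (45.5 to 55.9%). Breaks per 100 kb were 0.449, 0.744, 0.811 and 1.29 in that order. The median widths of these 4 groups were 66.2, 67.0, 74.4 and 65.6 kb, and 11.8%, 14.6%, 15.1% and 19.0% of them lay in raised stretches. The domains of 10 to 20 kb had the same order at both ends, 1 end and none, with 92.8%, 85.7% and 69.3% in 1 piece. An edge with WT H3K4me3 was also less often far off, since KO cover stopped short by 5 kb or more at 2.69% of 1154 such edges and at 7.25% of 1462 edges without it.

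**Figure D3:**
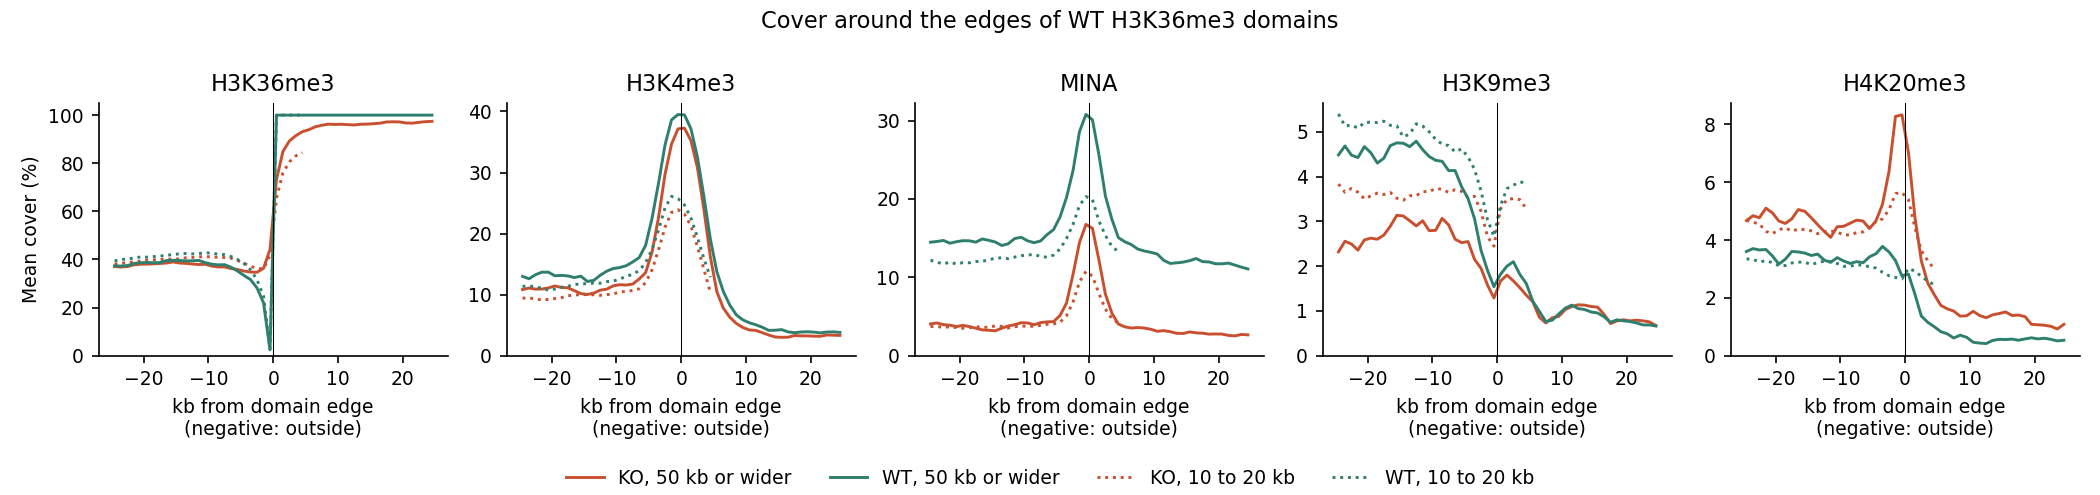
Mean cover (%) of each antibody's intervals in steps of 1 kb around the edges of WT H3K36me3 domains, in kb from the edge (negative values are outside). Solid lines are the domains of 50 kb or wider and dotted lines those of 10 to 20 kb, read only to 5 kb inside. Orange is KO and green WT, and each panel has its own vertical scale from 0. H3K4me3 and MINA peak at the edge in both genotypes. H3K9me3 of wide domains falls towards the edge and is lowest in the interior, with 1.54% just outside and 0.664% at 24 to 25 kb inside in WT. For the domains of 10 to 20 kb it is lowest at the edge. H4K20me3 has a peak at the edge in KO, where it reaches 8.33% just outside wide domains, against 2.76% in WT.

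The 665 wide domains with WT H3K4me3 at exactly 1 end gave a direction along the domain. They were laid out from that end and cut into 10 equal segments. The H3K4me3 end had the lower coordinate in 319 of them. H3K4me3 covered 48.6% of the first segment in KO and 53.1% in WT, 6.27% and 8.78% of the second, and 1.07% and 1.04% of the last. In KO MINA covered 12.3% of the first segment, 3.23% of the second and between 1.87% and 3.29% of each of the others. In WT it covered 28.0% of the first segment, 12.7% of the second and between 9.23% and 12.1% of each of the others, which is more than H3K4me3 covered there.

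KO H3K36me3 was missing mainly in the outer segments of these 665 domains. Uncovered were 9.30% of the first segment, 10.3% of the last, and between 1.95% and 3.28% of each one between them. Both outer segments thus lacked about the same share, the one with H3K4me3 and the one without. The 370 breaks were spread along the domains, with 32 in the first segment, 34 to 45 in each of the next 8 and 22 in the last.

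**Figure D4:**
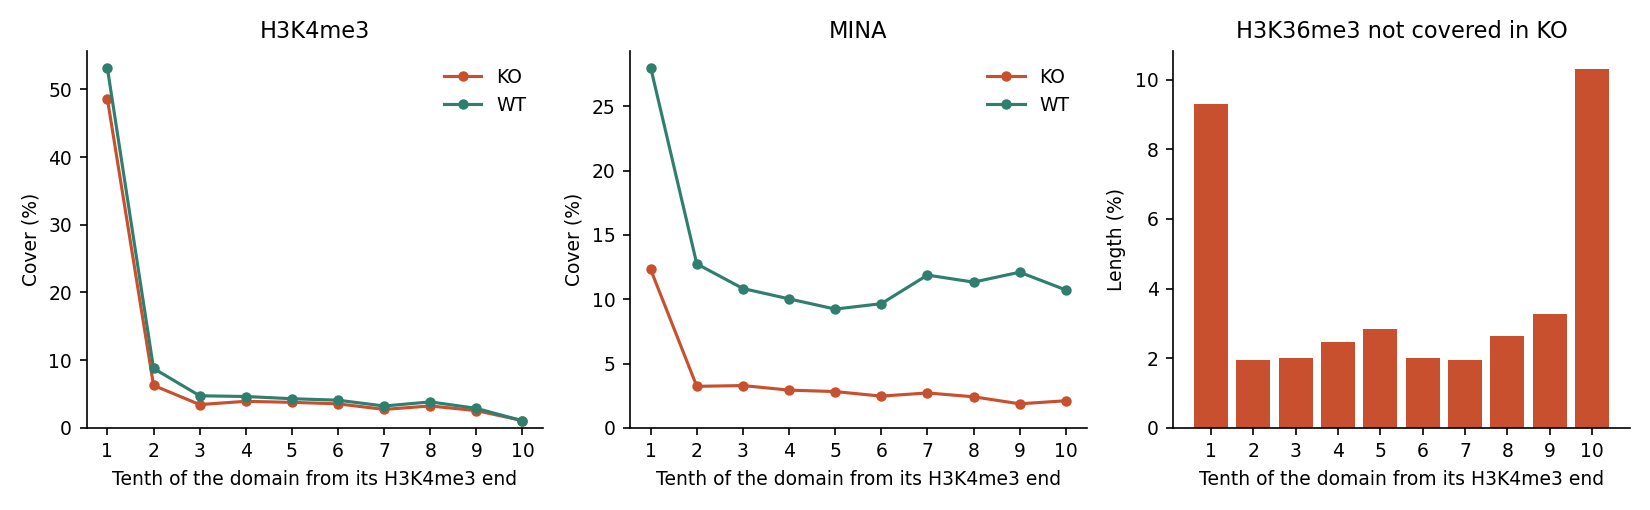
The 665 wide domains with WT H3K4me3 at 1 end, cut into 10 equal segments numbered from that end. The left and middle panels give the share of each segment's length (%) covered by H3K4me3 and by MINA, in KO (orange) and WT (green), and the right panel the share (%) that KO H3K36me3 did not cover. H3K4me3 drops after segment 1 in both genotypes, MINA in WT stays at 9.23% or more throughout, and KO H3K36me3 is missing most in segments 1 and 10, at 9.30% and 10.3%.

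Breaks in wide domains held about the same share of H3K4me3 as the domains over their whole length, ends included, and more than the middle of the domains. KO H3K4me3 overlapped 99 of the 814 breaks (12.2%) and covered 7.13% of the break length, against 7.11% of the domain length. WT H3K4me3 overlapped 119 breaks (14.6%) and covered 8.48% of the break length, against 8.19% of the domain length. In the central 10 kb of wide domains, away from the ends, H3K4me3 covered 3.49% in KO and 3.96% in WT. MINA covered less of the breaks than of the domains, with 2.47% against 3.58% in KO and 6.95% against 13% in WT. In the central 10 kb MINA covered 2.61% in KO and 10.4% in WT. In the domains of 10 to 20 kb WT H3K4me3 covered 5.13% of the break length, 16.1% of the domain length and 13.0% of the central 10 kb.

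MINA intervals overlapped most wide domains of WT cells, and fewer were listed in KO. There were 838 in KO and 1716 in WT, which is 0.855 and 1.75 per 100 kb. In the domains of 10 to 20 kb the values were 1.75 and 3.09 per 100 kb. Counted by their midpoint, so that an interval reaching over an edge is not counted in a short domain it barely touches, the values were 0.623 and 1.34 per 100 kb in wide domains and 1.03 and 1.75 in those of 10 to 20 kb. MINA covered 3.58% of the wide length in KO and 13% in WT, against 5.77% and 15.2% in the domains of 10 to 20 kb. In the 50 kb on either side of the wide domains MINA covered more, with 4.56% in KO and 15.3% in WT.

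By domain, MINA overlapped 44.3% of the wide domains in KO and 63.0% in WT. The shares of the domains of 10 to 20 kb were 22.3% and 34.9%, and those of all WT intervals 21% and 32.2%. In KO 730 wide domains had no MINA interval, 394 had 1, 140 had 2, 31 had 3 and 15 had 4 or more. In WT 485 had none, 407 had 1, 194 had 2, 96 had 3 and 128 had 4 or more. The share with 3 or more in WT was 224 of 1310 wide domains, against 2.91% of all WT H3K36me3 intervals. Fewer MINA intervals in KO than in WT were seen in 496 of the 1310 wide domains and more in 72. Of the 4660 domains of 10 to 20 kb 874 had fewer in KO and 136 had more. A wide domain has more length in which the numbers can differ, and the whole MINA list was shorter in KO. Both genotypes had MINA in 545 wide domains (41.6%), only KO in 35 (2.67%), only WT in 280 (21.4%) and neither in 450. The shares with MINA in both, in KO only and in WT only were 20.4%, 1.89% and 14.5% of the domains of 10 to 20 kb and 19.2%, 1.8% and 13% of all WT intervals.

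A MINA interval wholly inside was seen in 18.4% of the wide domains in KO and 33.4% in WT, against 3.33% and 6.36% of all WT intervals. In the central 10 kb, which is the same window in both classes, MINA overlapped 6.49% of the wide domains in KO and 17.3% in WT, and 12.5% and 24.2% of the domains of 10 to 20 kb. In WT the central share with MINA (17.3%) was larger than that with H3K4me3 (8.55%), while in the domains of 10 to 20 kb H3K4me3 was the more frequent of the pair (33.8% against 24.2% for MINA).

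MINA at the ends lay mostly on H3K4me3 and MINA inside mostly off it. Of 1097 WT MINA intervals at an end of a wide domain 89.5% lay on WT H3K4me3, and of 801 inside 39.1% did. In KO 62.1% of the end intervals and 28.7% of the inside intervals overlapped a MINA interval. On H3K4me3 67.9% of the end intervals and 58.8% of the inside intervals were found in KO, and off H3K4me3 12.2% and 9.43%. In the domains of 10 to 20 kb 65.0% of the end intervals on H3K4me3 and 10.6% of those off it were found. Because MINA stayed listed on H3K4me3 in cells labelled as lacking mdig, what the antibody bound there is not known from these lists.

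In the 200 wide domains of raised stretches the MINA number was close between genotypes, with 1.14 per 100 kb in KO and 1.18 in WT. Outside them it was 0.806 in KO and 1.85 in WT.

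Wide domains with MINA were less often broken in KO than those without. In 1 piece were 52.2% of the 485 domains with no WT MINA interval (Wilson interval 47.7 to 56.6%), 65.1% of the 407 with 1, 70.6% of the 194 with 2, 69.8% of the 96 with 3 and 67.2% of the 128 with 4 or more (58.7 to 74.7%). Breaks per 100 kb were 1.27, 0.677, 0.519, 0.503 and 0.483 in that order. The largest step lay between no MINA and 1 MINA interval, and the Wilson intervals of the 4 groups with MINA overlapped. Raised stretches held 22.1% of the domains without MINA and 6.70% to 14.7% of the groups with MINA. The 280 wide domains with MINA in WT only were in 1 piece in 60.4%, against 70.8% of the 545 with MINA in both genotypes and 52.2% of those with none in WT. Of these 3 groups 5%, 14.5% and 22.1% lay in raised stretches, where wide domains were less often broken, and its part in these shares was not tested. The domains of 10 to 20 kb had 1.39 breaks per 100 kb with no MINA, 0.569 with 1 and 0.409 with 2. H3K4me3 and MINA go together in these domains, and their separate parts in this were not tested.

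**Figure D5:**
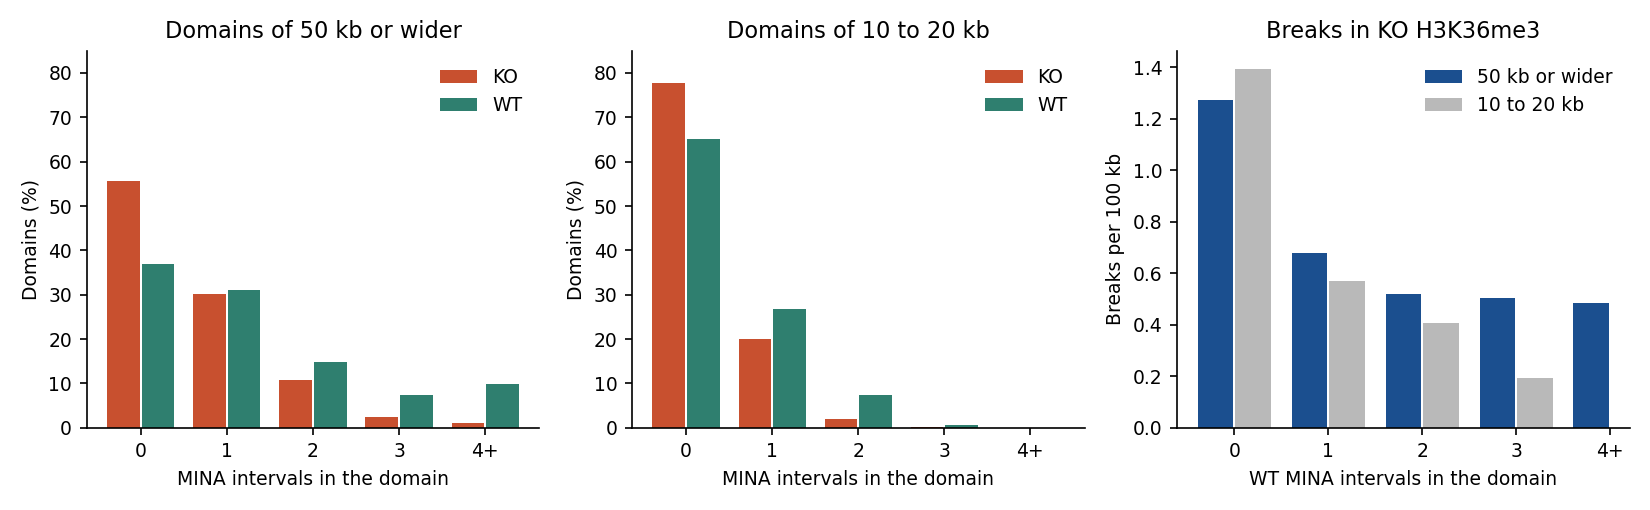
MINA intervals in WT H3K36me3 domains. The left and middle panels give the share of domains (%) with 0, 1, 2, 3 and 4 or more MINA intervals in KO (orange) and WT (green), for the 1310 domains of 50 kb or wider and the 4660 of 10 to 20 kb. The right panel gives breaks in KO H3K36me3 per 100 kb by the number of WT MINA intervals, for wide domains (blue) and those of 10 to 20 kb (grey, none with 4 or more). Wide domains without MINA had 1.27 breaks per 100 kb and those with 4 or more 0.483.

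The 3 domains with most WT MINA intervals were nearly complete in KO, both where MINA was listed in KO and where it was not. At chr9:130186801-130331000 (144.2 kb, in a raised stretch) 10 MINA intervals were listed in KO and 9 in WT. At chr12:113660201-113772800 (112.6 kb) there were 0 in KO and 9 in WT, and at chr10:126653001-126847200 (194.2 kb) 1 in KO and 8 in WT. KO H3K36me3 covered 99.3%, 99.8% and 99.2% of these 3 domains. MINA covered 0% of the chromosome 12 domain in KO and 54.4% in WT.

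H3K9me3 was scarce in wide domains and about equal in both genotypes. It overlapped 193 wide domains in KO (14.7%) and 175 in WT (13.4%), against 8.03% and 8.26% of the domains of 10 to 20 kb and 7.63% and 7.62% of all WT intervals. Per length the order was the opposite, with 0.922% of the wide length in KO and 0.969% in WT, against 3.33% and 3.70% of the domains of 10 to 20 kb. In the 50 kb on either side of the wide domains H3K9me3 covered 2.79% in KO and 4.80% in WT. The central 10 kb was overlapped in 2.29% of the wide domains in either genotype, and in 6.80% in KO and 7.25% in WT of the domains of 10 to 20 kb. Of the H3K9me3 length in wide domains 94.2% in KO and 91.4% in WT lay on KO H3K36me3, which covered 95.4% of the whole length of these domains. Wholly inside intervals were seen in 10.7% of the wide domains in KO and 9.47% in WT, against 2.51% and 2.04% of all WT H3K36me3 intervals. No wide domain was covered to 50% or more by H3K9me3.

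The highest H3K9me3 cover was in 2 neighbours on chromosome 10. At chr10:134535201-134585400 (50.2 kb) it was 46.2% in KO and 45.8% in WT, and at chr10:134480601-134531200 (50.6 kb) 24.1% and 38.7%. MINA in KO covered 0% and 1.19% of this pair, and MINA in WT 96.4% and 50.2%. At chr12:32103001-32154800 (51.8 kb) H3K9me3 cover was 5.02% in KO and 37.5% in WT, and KO H3K36me3 began 10.6 kb inside.

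H4K20me3 was listed in more wide domains in KO than in WT. It overlapped 318 wide domains in KO (24.3%, Wilson interval 22 to 26.7%) and 125 in WT (9.54%, 8.07 to 11.3%), against 12.4% and 6.07% of the domains of 10 to 20 kb and 12.3% and 5.73% of all WT intervals. Both genotypes had it in 94 wide domains (7.18%), only KO in 224 (17.1%) and only WT in 31 (2.37%). These shares were 4.42%, 8% and 1.65% of the domains of 10 to 20 kb and 4.08%, 8.17% and 1.65% of all WT intervals. The whole KO list was also the longer one, and in wide domains there were 418 H4K20me3 intervals in KO and 147 in WT. Cover was 1.67% of the wide length in KO and 0.793% in WT, against 3.62% and 2.63% of the domains of 10 to 20 kb.

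H4K20me3 lay more at the ends than in the middle of wide domains. It was at an end of 23.8% of the wide domains in KO and 8.40% in WT, against 15.5% and 7.04% of the domains of 10 to 20 kb. It overlapped the central 10 kb of 2.67% of the wide domains in KO and 1.53% in WT, against 7.70% and 4.61% of the domains of 10 to 20 kb. Wholly inside intervals were seen in 10.2% in KO and 4.05% in WT, against 2.22% and 0.88% of all WT H3K36me3 intervals. Just outside the edge its cover was 8.33% in KO and 2.76% in WT, and at 24 to 25 kb outside 4.67% and 3.60%, so in KO it was higher at the edge than farther out. Of its intervals 68.4% in KO and 71.4% in WT overlapped H3K4me3 of the same genotype, and 17.2% and 17.0% overlapped H3K9me3. In the domains of 10 to 20 kb 66.3% in KO and 55.0% in WT overlapped H3K4me3, and 34.0% and 55.6% overlapped H3K9me3. In raised stretches 31.5% of the wide domains had H4K20me3 in KO and 4% in WT, and outside them 23% and 10.5%.

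The highest H4K20me3 cover was at chr20:30247401-30312200 (64.8 kb), with 50.3% in KO and 49.4% in WT. There H3K4me3 covered 46.9% in KO and 46.3% in WT. At chr11:12129401-12301600 (172.2 kb) H4K20me3 covered 42.6% in KO and 48.5% in WT, while H3K4me3 covered 8.48% and 8.13%. At chr19:4672601-4724200 (51.6 kb) H4K20me3 covered 48.1% in KO and had no interval in WT. MINA covered 63.2% of that domain in KO and 100% in WT, and KO H3K36me3 covered 98.4% of it.

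Some of these properties moved steadily with width and others did not. In domains of 10 to 20, 20 to 50, 50 to 75, 75 to 100 and 100 kb or wider the median KO cover was 94.0%, 97.5%, 98.5%, 98.9% and 99.0%. The share in 1 piece went the other way, with 77.8%, 73.4%, 65.5%, 56.7% and 51.5%, while breaks per 100 kb were 1.08, 1.02, 0.854, 0.900 and 0.695. WT H3K4me3 was at an end of 47.7%, 61.1%, 69.3%, 68.5% and 72.2%. Neither the breaks per 100 kb nor H3K4me3 at an end had a steady order among the 3 wide classes. MINA per 100 kb was 1.75, 1.37, 1.00, 0.810 and 0.571 in KO and 3.09, 2.51, 1.92, 1.62 and 1.51 in WT. These numbers include intervals that cross an edge, which weigh more in short domains. MINA cover was 5.77%, 5.25%, 4.05%, 3.69% and 2.33% in KO. In WT it was 15.2%, 16.1%, 13.7%, 12.0% and 12.3%, with no steady order. H3K9me3 in KO overlapped 8.03%, 8.89%, 13.5%, 11.7% and 26.0% of the domains in these classes and covered 3.33%, 1.93%, 1.04%, 0.549% and 1.09% of their length. Both values were thus higher in the 169 domains of 100 kb or wider than in those of 75 to 100 kb. A wider domain has more length in which an interval can fall, and the cause was not tested.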

How the data were processed

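The data were lists of enriched intervals in MDA-MB-231 cells, from 10 ChIP libraries with 1 per antibody and genotype. Per the submitters' processing notes, BWA, SICER 1.1 and the build hg19 were used. For caller settings, depth and input use, the entry is: not given in the sources used here. What the authors deposited are positions (chromosome, start and end) with no count, score or p-value. The intervals lie on a grid of 200-bp windows, and within a list the smallest gap is 800 bp, tested on the file. The merged list and the input library were not used here.

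Domains were read from the WT H3K36me3 list on chromosomes 1 to 22 and X. Cover is the share of a domain's 200-bp windows in another list. Pieces are the KO intervals in a domain, breaks the gaps between them, and an overlap needs 1 bp. An end reaches 2 kb to either side of an edge. Python 3.11.15, numpy 2.4.6 and scipy 1.17.1 were used, and 16 of 16 overlap counts equalled those of bedtools 2.31.1. The counting was tested on simulated data. Shares have 95% Wilson intervals, at most 2.70 points to either side for all wide domains and 1.43 for those of 10 to 20 kb. They cover counting error over domains only, and neighbouring domains are not independent. With 1 library per group there is no test.

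Raised stretches were cut by a 2-state hidden Markov model on the log2 KO over WT ratio of H3K4me3 length in 2-Mb bins (1 kb added, ratios limited to 0.75 on the log2 scale, chance of a switch 0.001). Bins under 20 kb took the state of their neighbours. Domains were named by rule: the 5 widest and, 3 each, those with the lowest KO cover, most KO pieces, most WT MINA intervals, highest H3K9me3 and H4K20me3 cover, greatest width without H3K4me3, and just inside and outside 50 kb. Coordinates are 1-based on hg19. An hg19 annotation was not used here, so no gene is named and no sequence shown. The members, rules and comparisons were chosen with earlier results of these data known. Alternatives varied the width limits, end window, merging, overlap rule, smallest interval, raised stretches and the genotype that chose the domains.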

Additional observations from a re-analysis of the deposited data

How the results depend on the processing

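Of 112 values under alternative settings, 62 moved by less than their counting interval and 50 by more. For H3K9me3 and H4K20me3 cover that interval treated a share of length as a share of domains, so it is no measure of counting error. It was wide, with 0.564 to 1.66% around 0.969% for WT H3K9me3 in wide domains, so a move was seldom counted there. The order of 2 values turned round in 2 cases, given below: the classes in the share in 1 piece with KO intervals within 5 kb merged, and the genotypes in H3K9me3 cover with domains of 20 to 50 kb in place of 10 to 20 kb. The cause was not tested. For wide domains, median KO cover (98.6%) became 98.4% without the raised stretches, 98.5% for domains of 40 kb or wider, 98.9% for 75 kb or wider, 100% with KO intervals within 5 kb merged and 97.8% for domains chosen in KO and read in WT. The share in 1 piece (61.7%) became 58.8% without the raised stretches, 54.8% at 75 kb or wider and 95.2% with KO intervals merged, against 91.5% for the domains of 10 to 20 kb. WT H3K4me3 was at an end of 72.5% with an end window of 5 kb, and inside 18.2% at 40 kb or wider and 28.9% at 75 kb or wider. With WT H3K36me3 intervals within 5 kb merged, which was chosen after seeing the data, it was at an end of 75.3% and inside 41.0%. MINA per 100 kb in KO became 0.70 at 75 kb or wider, 0.623 by midpoint and 0.699 for intervals of 2 kb or wider. In WT it became 1.85 without the raised stretches, 1.87 at 40 kb or wider, 1.57 at 75 kb or wider, 1.34 by midpoint, 1.35 with MINA intervals within 5 kb merged and 1.64 for intervals of 2 kb or wider.

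For the domains of 10 to 20 kb, median KO cover became 92.1% without the raised stretches, 98.8% with KO intervals merged and 93.4% when chosen in KO, and the share in 1 piece 75.7%, 91.5% and 79.1%. WT H3K4me3 was at an end of 45.5% and 52.4% with end windows of 1 and 5 kb, and inside 1.61% and 0.300%, or 0.751% for intervals of 2 kb or wider. MINA per 100 kb in KO became 1.64 without the raised stretches, 1.03 by midpoint and 1.49 for intervals of 2 kb or wider, and in WT 3.25, 1.75 and 2.82, or 2.63 with MINA intervals merged. With domains of 20 to 50 kb in their place, cover was 97.5%, 1 piece 73.4%, H3K4me3 at an end 61.1% and inside 6.83%, MINA per 100 kb 1.37 in KO and 2.51 in WT, H3K9me3 cover 1.93% in KO and 1.91% in WT, and H4K20me3 cover 2.62% and 1.72%.

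No paired analysis was possible because there is 1 library per antibody and genotype. Depth is unknown and no list holds a height, so a gap cannot be told apart from a small drop under the caller's threshold, and longer lists cannot be told apart from deeper libraries.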
